A study of Mus musculus with 8 samples.

Results

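The 4 arrays of Gr-MDSCs kept in DMSO, the solvent control, were chosen from the 8 arrays of the series by their titles, and they are called DMSO 2, DMSO 3, DMSO 4 and DMSO 5 after the replicate numbers there. The other 4 arrays carry RNA of cells given Dactolisib or Dasatinib and are not compared here. Gr-MDSCs (granulocytic myeloid-derived suppressor cells) were taken from prostate tumors of male mice of the CPPSML model at 12 to 16 weeks of age, which carry PB-Cre+, floxed alleles that include p53L/L and also Smad4L/L, and the reporters mTmGL/+ as well as LSL-LucL/+. In this model a probasin promoter drives Cre in prostate epithelium, where the floxed genes, p53 and Smad4 among them, are deleted, so the myeloid cells themselves are not the cells in which the promoter is known to act. The mice had been castrated and fed enzalutamide, an androgen receptor blocker, for 4 weeks, and cells that carried CD11b and Ly6G with low Ly6C were pulled from the digested tumors with magnetic beads and held in DMSO for 6 h. The sources do not say whether the 4 RNA samples came from separate mice, so the spread between arrays may hold technical as well as biological differences. No p-value is given, because 1 group was described and nothing was compared between groups.

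Gr-MDSCs resemble neutrophils. They accumulate in tumors, where they restrain T cells by consuming arginine through arginases, by releasing reactive oxygen through the NADPH oxidase, by prostaglandin E2 and by checkpoint ligands such as PD-L1. They are drawn into tissue through the chemokine receptor CXCR2, they depend on the growth factor G-CSF and its receptor, and they carry the calprotectin pair S100A8 and S100A9 in large amounts, as neutrophils do.

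All 4 granulocyte markers were well above background on every DMSO array. S100a9 had log2 signals of 14.11, 14.05, 14.12 and 14.05 and S100a8 of 13.84, 13.71, 13.85 and 13.76, given here and below in the order DMSO 2, DMSO 3, DMSO 4 and DMSO 5. Csf3r, the G-CSF receptor, had 12.45, 12.42, 12.55 and 11.64. Cxcr2, the receptor for CXCL1, CXCL2 and CXCL5, had 9.62, 9.01, 9.63 and 8.23. The first 3 of these signals lay in the upper part of the scale on every array, and Csf3r and Cxcr2 were both lowest on DMSO 5. Itgam, which encodes CD11b and whose protein was used to select the cells, had 10.74, 10.14, 10.90 and 9.38. These markers go with the label of a granulocytic cell. Ly6g and Ly6c2, which would help to separate it from a monocytic cell, had no probe set of their own. Monocyte genes such as Csf1r (12.19, 12.47, 12.28 and 11.43) and epithelial transcripts were also found on every array, as described below.

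The deposited values are log2 signals of probe sets, the groups of short probes that stand for a transcript on the array, so a difference of 1 is a 2-fold difference in signal. A signal depends on the probes as well as on the RNA, and the order of different genes by signal is therefore not their order by RNA amount. A background level, here called the floor, was set on each array at the 95th percentile of 83 probe sets for olfactory, vomeronasal and taste receptors, and it was 4.98, 5.01, 4.90 and 4.78. Of 18193 genes with a probe set of their own, 10309 (56.7%) were above the floor on all 4 arrays, 6093 (33.5%) were at or below it on all 4, and 1791 were above it on some. The array medians were 4.85, 4.85, 4.86 and 4.85, and the highest signals on the arrays were 14.11 to 14.13. Signals at the 3′ and 5′ ends of the control transcripts differed by -0.10 to -0.038 log2 for Gapdh and by 0.026 to 0.082 log2 for Actb, so RNA integrity by this measure was alike on the 4 arrays. Eif2s3y, on the Y chromosome, was above the floor on all 4 arrays, at 9.14, 9.31, 9.06 and 8.58, and Xist, which is expressed in female cells, was at or below it, at 4.27, 4.35, 4.03 and 3.92.

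The arrays were not equally alike. Across the 10309 genes above the floor on all arrays, Pearson's r was 0.997 between DMSO 2 and DMSO 4, and 0 genes differed by 1 log2 or more between them. The 2 arrays differed by a median of 0.0816 log2, against 0.142 to 0.379 for the other 5 pairs. For those other pairs r was between 0.890 (DMSO 3 and DMSO 5) and 0.974 (DMSO 2 and DMSO 3), as a description across genes, which are not independent replicates. DMSO 5 was at least 1 log2 above each other array for 1071 of the 12100 genes above the floor on at least 1 array (8.85%) and at least 1 log2 below each for 218 (1.8%). DMSO 3 was at least 1 log2 above each other array for 34 genes (0.281%) and below each for 295 (2.44%). For DMSO 2 and DMSO 4 all these counts were 0, as they had to be for genes on which the pair differed by less than 1 log2. By rank alone, DMSO 2, DMSO 3, DMSO 4 and DMSO 5 were the highest array for 15.2%, 29.6%, 18.4% and 36.8% of the 12100 genes and the lowest for 13.3%, 27.5%, 13.5% and 45.7%. DMSO 3 and DMSO 5 thus stood apart from the other pair and from each other, and the results below are given with these arrays in and, where it matters, without them.

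**Figure D1:**
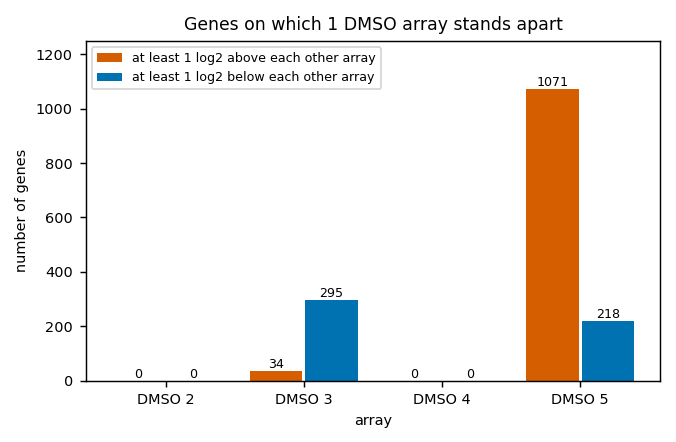
Number of genes (vertical axis) for which 1 DMSO array was at least 1 log2 above (orange) or below (blue) each of the other 3, for the 4 arrays along the horizontal axis. DMSO 5 stood above the others for 1071 genes and DMSO 3 stood below them for 295. DMSO 2 and DMSO 4 had 0 of either kind, which follows where this pair differs by less than 1 log2.

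Ranked by mean signal, the first 25 genes were Fth1, S100a9, Actb, S100a8, Srgn, Tpt1, Nfkbia, Cxcl2, Clec4d, Cd24a, Lgals3, Tmsb4x, Cd14, Sqstm1, Malat1, Il1b, H2-D1, Slfn4, Slpi, Gadd45b, H2-K1, Actg1, B2m, Tyrobp and Rps29, and the lowest mean among them was 13.12. Fth1, the heavy chain of ferritin, had 14.11, 14.12, 14.13 and 14.13 and was the highest value on each array. Srgn, the proteoglycan core protein that packs granule contents, had 13.74, 13.74, 13.68 and 13.60. Both signals were nearly the same on the 4 arrays, with ranges of 0.018 and 0.14 log2, and as Fth1 sat at the upper end of the scale, how far a ceiling of the scale set such small ranges was not tested. Nfkbia, the inhibitor that NF-κB induces to shut itself off, had 13.54, 13.61, 13.54 and 13.52. Cxcl2, a neutrophil-attracting chemokine, had 13.38, 13.58, 13.48 and 13.51. Clec4d, a C-type lectin receptor of phagocytes, had 13.42, 13.53, 13.46 and 13.46. By these probe sets the arrays again lay within 0.2 log2 of each other, while other Nfkbia sets had ranges of 0.075 to 0.55 log2. Tyrobp, the adaptor DAP12 of myeloid receptors, had 13.31, 13.22, 13.35 and 12.67, and its range of 0.68 log2 was the largest among the 25, with DMSO 5 lowest. Of these 25 genes, 12 were steady (a range of at most 0.2 log2, or 14.9%, with a mean of at least 8), 14 were in the first 25 of every single array, and 0 belonged to a list of another lineage. Steady genes made up 10.1% of the 3395 genes with a mean of at least 8. Among the first 100 genes, whose lowest mean was 12.30, 16 belonged to the granulocyte lists, 5 encoded ribosomal proteins, 0 belonged to another lineage, 60 were shared by the first 100 of all 4 arrays and 0 were variable, a term kept for a range of at least 2 log2, which is 4-fold, in a gene above the floor on at least 1 array. Variable genes numbered 704 (3.87% of all genes). The granulocyte lists held 63 and the lists of other lineages 149 of the 18193 genes, so the counts of 0 for other lineages say little. A ranking by mean also passes over genes bright on 1 array, such as Krt8, at 13.31 on DMSO 5.

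Granulocyte genes were present almost as a whole. Of 63 measured members of the 4 granulocyte lists (surface receptors, granule and secreted proteins, S100 proteins with their annexin partners, and transcription factors), 57 were above the floor on all 4 arrays, beside 56.7% of all genes. All 19 surface receptors were above it. The 4 brightest of them were Clec4d, Clec4e, Fpr2 and Itgb2. Clec4e, or Mincle, senses cell damage and mycobacterial lipids and had 12.95, 13.24, 13.01 and 13.01. Fpr2, a receptor for formylated peptides, had 12.88, 13.07, 12.86 and 12.41. Itgb2, the β2 integrin chain that pairs with CD11b, had 12.69, 12.56, 12.69 and 12.04. Their signals differed little between DMSO 2, DMSO 3 and DMSO 4, and those of Fpr2 and Itgb2 were lowest on DMSO 5. That array was the lowest for 16 of the 19 receptors, beside 45.7% of the 12100 genes above the floor on at least 1 array, and the list median was 11.36, 11.66, 11.18 and 10.58. On the same array 17 of 20 epithelial genes were highest, as described below, and their part in the lower receptor signals was not tested. In bulk RNA, fewer cells of a type and less RNA per cell cannot be told apart. The median range of the receptors was 1.05 log2, and 0 were variable, beside 3.87% of all genes.

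The S100 list held bright and even genes beside 1 variable gene. S100a9 averaged 14.08 ± 0.040 (SD, n = 4) and S100a8 13.79 ± 0.066 (SD, n = 4), and both were steady. S100a6, or calcyclin, had 12.83, 12.24, 12.83 and 12.60, and Anxa2, annexin A2, had 12.55, 11.84, 12.52 and 12.51. Both were lowest on DMSO 3. S100a10, the partner of annexin A2, had 9.21, 7.80, 9.28 and 10.97 and was variable, with a difference of 3.18 log2 between DMSO 5, the highest, and DMSO 3, the lowest. S100a4, which is also used as a marker of fibroblasts, had 7.50, 6.97, 7.82 and 6.68.

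S100a8 and S100a9 lie near each other on chromosome 3 and were bright and steady, so the stretch around each start is shown, from 250 bases before the gene start to 50 after it, from RefSeq (build GRCm38.p6). The sequences read 5′ to 3′ on the strand of the gene, S100a8 on the plus strand at chr3:90668821-90669120 and S100a9 on the minus strand at chr3:90695672-90695971, and capitals mark a match to TTGCNNAA, a core form of the site bound by C/EBP factors, searched on both strands.
S100a8: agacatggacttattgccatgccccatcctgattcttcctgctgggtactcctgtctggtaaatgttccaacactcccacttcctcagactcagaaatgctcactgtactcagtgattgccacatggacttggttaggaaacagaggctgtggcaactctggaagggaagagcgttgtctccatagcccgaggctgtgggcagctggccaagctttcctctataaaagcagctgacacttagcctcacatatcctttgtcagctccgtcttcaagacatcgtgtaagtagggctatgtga
S100a9: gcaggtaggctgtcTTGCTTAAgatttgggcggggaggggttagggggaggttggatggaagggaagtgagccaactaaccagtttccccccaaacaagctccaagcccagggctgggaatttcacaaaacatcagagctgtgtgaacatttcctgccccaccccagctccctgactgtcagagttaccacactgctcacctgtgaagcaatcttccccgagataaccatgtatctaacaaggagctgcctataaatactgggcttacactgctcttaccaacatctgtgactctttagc
The S100a9 stretch held 1 match, which begins 236 bases before the gene start, and the S100a8 stretch held 0. The same letters were found in 11 of 43 stretches (25.6%) of the granulocyte receptor, granule and S100 genes and in 10.8% of 32851 stretches of all genes. A match describes letters and does not show that a factor binds there.

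Among the granule and secreted proteins, secreted inhibitors and specific granule proteins were bright, and the primary granule enzymes were at or near background. Of 24 members, 20 were above the floor on all 4 arrays, beside 56.7% of all genes. Slpi, an inhibitor of neutrophil elastase, had 12.98, 13.56, 12.92 and 13.30. Wfdc17, a related small secreted protein, had 13.19, 12.91, 13.08 and 12.88. Lcn2, the iron-binding lipocalin of specific granules, averaged 12.91 ± 0.15 (SD, n = 4). The ranges of these 3 genes were under 1 log2. Mmp9, the gelatinase of tertiary granules, had 11.60, 11.25, 11.50 and 10.21, lowest on DMSO 5. Camp, the cathelicidin of specific granules, was much dimmer at 7.18, 7.26, 7.27 and 6.47. The enzymes of primary granules, made at the promyelocyte stage, were different. Mpo, myeloperoxidase, had 4.59, 4.49, 4.55 and 4.57, below the floor on all 4 arrays. Prtn3, proteinase 3, had 4.75, 4.99, 4.76 and 4.61, and Ctsg, cathepsin G, had 3.93, 4.33, 4.35 and 4.09, and these signals too were at or below the floor on all 4. Elane, neutrophil elastase, lay just above it at 5.32, 5.30, 5.34 and 5.28, and Ms4a3, a marker of granulocyte and monocyte progenitors, was above it on some arrays, at 5.24, 4.94, 4.91 and 4.69. The signals of these 5 genes were near background, and a low level cannot be told apart from none there.

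Both variable members of the granule list, and Anxa1, differed between arrays in their own ways. Ltf, the lactoferrin of specific granules, had 12.83, 9.51, 12.94 and 12.30, and without DMSO 3 its range was 0.64 log2 in place of 3.43. Stfa3, a stefin that inhibits cysteine proteases, had 8.82, 7.49, 8.70 and 6.31, lowest on DMSO 5 and next lowest on DMSO 3. Anxa1, annexin A1, had 13.20, 11.71, 13.25 and 13.61. Ltf and Anxa1 were thus lowest on DMSO 3, the array on which 18 of 20 epithelial genes were lowest too. Both genes are also known in epithelia, and how much of the Ltf and Anxa1 signal came from other cells was not tested. The list median was 10.82, 9.55, 10.48 and 10.11.

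Of the transcription factors that shape granulocytes, Cebpb, Id2, Spi1 and Junb were the brightest. Cebpb, the C/EBP factor of emergency granulopoiesis, had 12.96, 12.91, 12.86 and 12.61. Id2, an inhibitor of helix-loop-helix factors, had 12.73, 12.76, 12.65 and 12.06. Spi1, the myeloid master factor PU.1, had 10.92, 10.85, 10.79 and 9.70. For Id2 and Spi1 DMSO 5 was the lowest array. Cebpa, needed at the progenitor stage, had 7.51, 7.89, 7.36 and 7.61. Gfi1, a repressor that neutrophil precursors need, was below the floor on all 4 arrays, at 3.77, 4.21, 3.66 and 3.30, and Irf8, which directs monocytes and dendritic cells, was at 4.56, 4.64, 4.70 and 4.81, above the floor of DMSO 5 only. Klf4, which acts in monocytes and also in epithelium, was the 1 variable member, with 8.31, 6.95, 8.19 and 9.45, highest on DMSO 5 and lowest on DMSO 3. Of 14 factors, 12 were above the floor on all arrays, beside 56.7% of all genes.

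**Figure D2:**
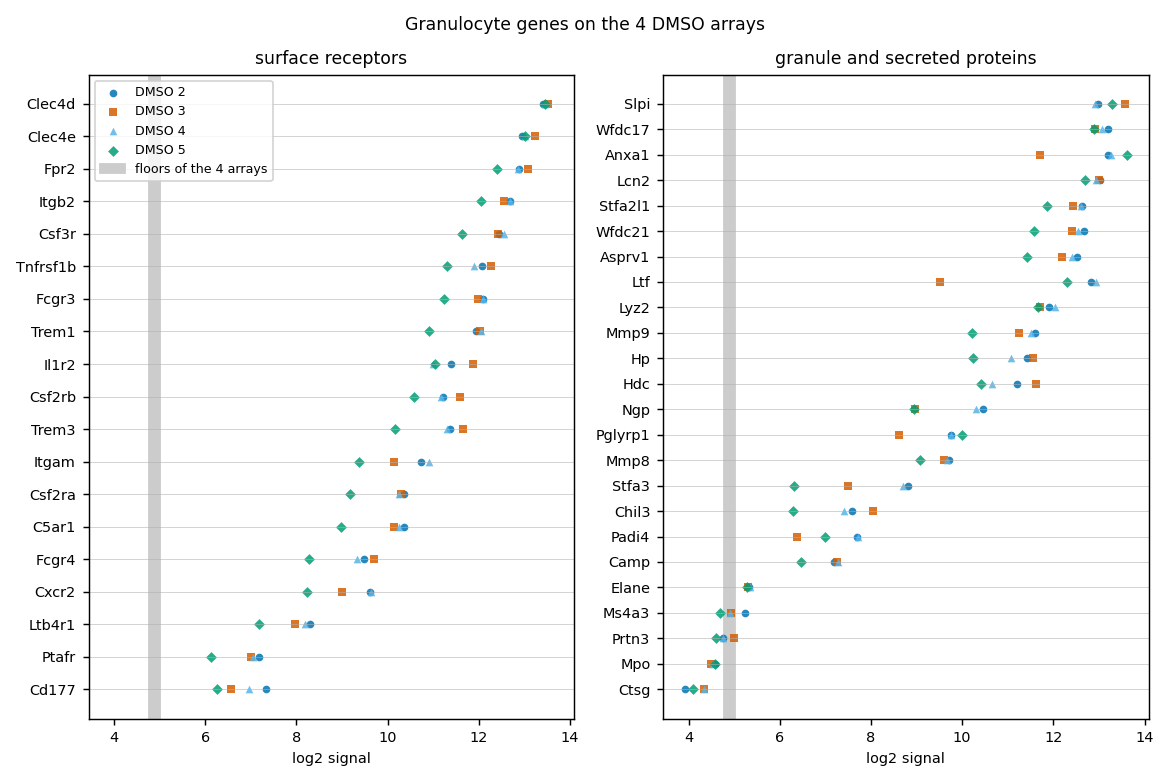
Log2 signal (horizontal axis) of the 19 granulocyte surface receptors (left) and the 24 granule and secreted proteins (right) on the 4 DMSO arrays, 1 symbol per array, with the grey band spanning the floors of the 4 arrays. DMSO 5 was lowest for 16 of the 19 receptors, Ltf was 9.51 on DMSO 3 and at least 12.30 on the others, and Mpo, Prtn3 and Ctsg lay at or below the floor.

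Most suppressor genes, arginases, checkpoint ligands and prostaglandin enzymes among them, were above the floor. Of 24 effectors, 22 were above it on all 4 arrays, beside 56.7% of all genes. The list median was 9.46, 9.34, 9.30 and 8.31, lowest on DMSO 5, where 18 of the 24 members were lowest, beside 45.7% of genes above the floor on at least 1 array. Epithelial genes were highest on that array, and their part in these values was not tested. Il1rn, the interleukin 1 receptor antagonist, had 12.96, 13.21, 12.94 and 12.71. Arg2, the mitochondrial arginase, had 11.90, 12.11, 11.98 and 11.36. Hif1a, the oxygen-regulated factor that drives arginase and PD-L1 in tumor myeloid cells, had 11.94, 12.08, 11.81 and 11.51. These effectors lay within 1 log2 on the 4 arrays. Cd274, which encodes PD-L1, had 11.21, 11.96, 11.12 and 11.01 and was highest on DMSO 3. Slc7a11, the cystine importer, had 10.72, 11.42, 10.82 and 10.83. Ptgs2, or COX-2, the first enzyme of prostaglandin E2 synthesis, had 9.98, 10.95, 10.05 and 10.88. It was higher on DMSO 3 and DMSO 5 than on the other pair. Ptges, the terminal synthase of the same route, was steady at 8.20, 8.09, 8.14 and 8.08, though its other probe sets had ranges of 0.24 and 0.39 log2.

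Arg1, the cytosolic arginase, was the 1 variable suppressor effector. Its signals were 12.32, 8.07, 12.37 and 9.29, so that DMSO 2 and DMSO 4 were alike and DMSO 3 lay 4.29 log2 below the highest array. Without DMSO 3 the range was 3.07 and without DMSO 5 it stayed at 4.29. DMSO 3 was also lowest for 18 of 20 epithelial genes, and DMSO 5 was highest for 17 of them but not for Arg1. Some genes of epithelium had the same order of arrays as Arg1. Among them were the keratin Krt13 (10.18, 4.60, 10.29 and 8.47) and Psca, prostate stem cell antigen (11.32, 6.62, 11.34 and 9.20). How much of the Arg1 signal came from other cells was not tested. The NADPH oxidase subunits were bright, and all 5 were lowest on DMSO 5, beside 45.7% of genes above the floor on at least 1 array. Ncf1, the p47phox organizer, had 12.60, 12.52, 12.29 and 11.55. Cybb, the catalytic gp91phox chain, had 9.43, 9.96, 9.38 and 8.69. Their list median was 12.31, 12.20, 12.27 and 11.22. Other effectors were dim. Nos2, the inducible nitric oxide synthase, had 5.38, 5.88, 5.51 and 5.06, less than 1 log2 above the floor. Il10, an anti-inflammatory cytokine, had 5.92, 6.98, 6.31 and 6.95, and Tgfb1, transforming growth factor β1, had 7.45, 7.52, 7.39 and 6.66. Ido1, which breaks down tryptophan, was above the floor on DMSO 5 only, at 4.83, 4.35, 4.43 and 5.76. Slc27a2, the fatty acid transporter FATP2, was at 3.66, 3.53, 3.49 and 3.56, below the floor on every array.

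Inflammatory cytokines and chemokines were among the brightest genes. Of 27 members, 22 were above the floor on all 4 arrays, beside 56.7% of all genes. The list medians were close, at 8.86, 9.08, 8.93 and 8.84. Il1b, interleukin 1β, had 13.36, 13.49, 13.33 and 12.92. Ccl3, or MIP-1α, had 13.02, 13.28, 12.99 and 13.06. Tnf, tumor necrosis factor, had 11.71, 12.04, 11.62 and 11.37. Il1b and Tnf were lowest on DMSO 5, and the ranges of all 3 were under 1 log2. The ligands of CXCR2 were less even. Cxcl1, a ligand made by many stromal cells as well, had 10.55, 11.03, 10.60 and 12.10, highest on DMSO 5. Cxcl5, an epithelial and tumor ligand of CXCR2, had 9.83, 6.88, 9.95 and 10.46 and was variable, with DMSO 3 the lowest array. Il23a, the p19 chain of interleukin 23, showed the largest gap of any gene that stood above the other arrays on DMSO 3, with 8.47, 10.26, 8.37 and 8.40. Il6, interleukin 6, was above the floor on some arrays and variable, with 5.21, 3.99, 4.90 and 6.53, and Csf2, the growth factor GM-CSF, had 4.94, 4.57, 4.69 and 6.07. Csf3, which encodes G-CSF, was above the floor throughout, at 6.47, 6.43, 6.39 and 7.46. Ccl22, Cxcl9 and Il12b were at or below the floor on all 4 arrays. The first 2 of these are chemokines for T cells, and the other is the p40 chain of interleukins 12 and 23.

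**Figure D3:**
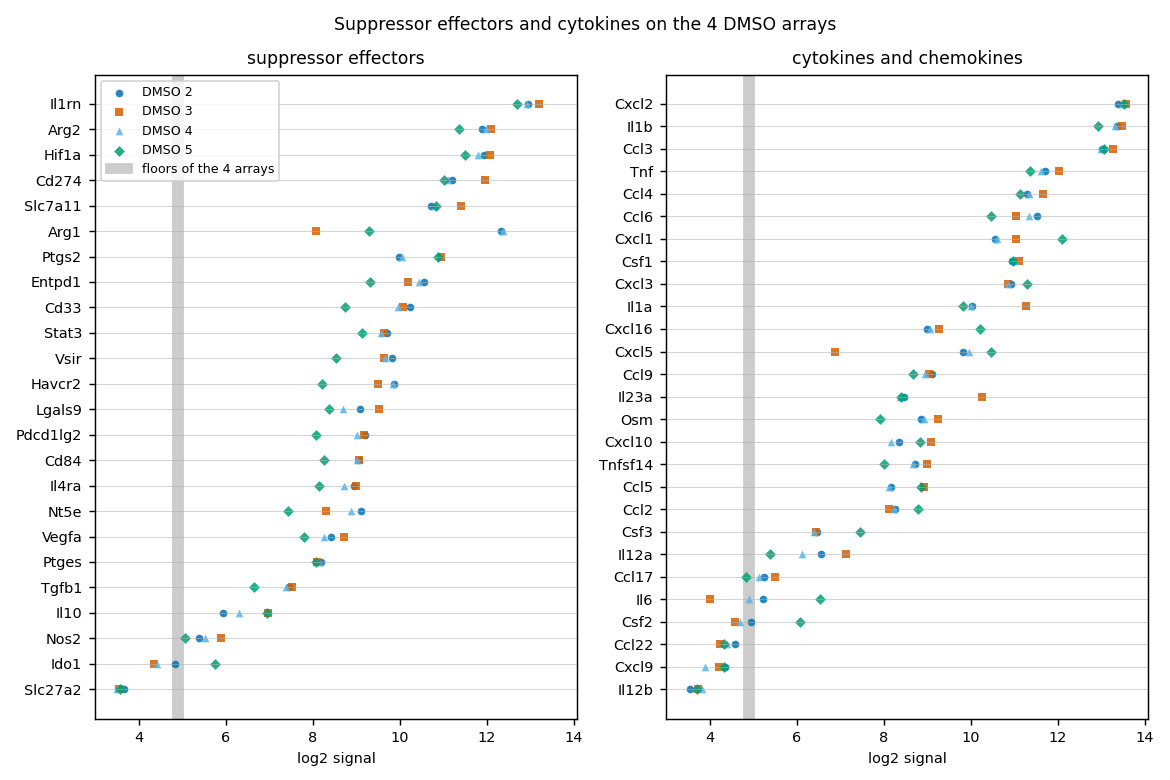
Log2 signal (horizontal axis) of 24 suppressor effectors (left) and 27 cytokines and chemokines (right) on the 4 DMSO arrays, 1 symbol per array, with the floors in grey. Arg1 spread over 4.29 log2 with DMSO 3 lowest, Il23a was 10.26 on DMSO 3 and at most 8.47 elsewhere, and Slc27a2, Ccl22, Cxcl9 and Il12b lay at or below the floor.

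Most monocyte and macrophage genes were above the floor. Of 22 members, 17 were above it on all arrays and 3 at or below it on all, beside 56.7% and 33.5% of all genes, and the list medians of 6.92, 7.21, 6.84 and 7.76 were lower than those of the granulocyte lists. Cd14, the lipopolysaccharide co-receptor, had 13.32, 13.48, 13.27 and 13.19. Csf1r, the receptor for M-CSF, had 12.19, 12.47, 12.28 and 11.43. Cd68, a lysosomal protein of phagocytes, had 11.52, 11.77, 11.45 and 10.99. These bright members, which activated granulocytes can also carry, were lowest on DMSO 5. Adgre1, the macrophage antigen F4/80, had 9.28, 9.61, 9.51 and 8.69. The complement chain C1qa had 7.88, 7.60, 7.78 and 9.13, with DMSO 5 highest. Apoe, apolipoprotein E, had 9.61, 9.78, 9.59 and 10.93, with DMSO 5 again highest. On DMSO 5, 12 of the 22 members were highest, beside 36.8% of genes above the floor on at least 1 array, while 0 of the 19 granulocyte receptors were. Ccr2 and Cx3cr1, the receptors that separate monocyte subsets, were dim. Ccr2 had 5.40, 5.53, 5.28 and 5.16, and Cx3cr1 had 6.71, 6.46, 6.71 and 5.83. The other probe sets of Ccr2 had 2.49 to 3.20, below the floor on all arrays. The other one of Cx3cr1 had 3.92 to 5.36, above the floor on 3 arrays. Mrc1, the mannose receptor, had 4.79, 4.72, 4.64 and 6.56 and Lyve1, a marker of resident macrophages, had 3.39, 3.39, 3.37 and 5.37, both above the floor on DMSO 5 alone. Vcan, Mertk and Cd163 were at or below the floor on all 4 arrays.

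By their brightest probe sets the class I heavy and light chains were bright and even, and genes that supply their peptides differed more between arrays. H2-D1, a heavy chain gene, had 13.27, 13.24, 13.30 and 13.22. H2-K1, another heavy chain gene, had 13.18, 13.16, 13.23 and 13.13. B2m, the light chain, had 13.08, 13.16, 13.06 and 13.25. All were steady by these probe sets, and all lay in the brightest 25. By other sets above the floor the ranges reached 0.55 log2 for H2-D1, 0.47 for H2-K1 and 0.22 for B2m. Of the other 14 genes of the antigen presentation list 0 were steady, beside 10.1% of genes with a mean of at least 8. Members with a lower mean, such as Ciita, could not be called steady, so this count says little. Tap1, a chain of the peptide transporter, had 8.83, 9.43, 8.59 and 8.06, with a range of 1.37 log2. Psmb9, a subunit of the immunoproteasome, had 8.79, 9.08, 8.53 and 8.04, with a range of 1.04 log2. Both were highest on DMSO 3 and lowest on DMSO 5. The class II chain H2-Aa had 8.80, 8.26, 8.78 and 9.27 and the invariant chain Cd74 had 7.70, 7.55, 7.76 and 8.36. These class II signals were dimmer, though different probe sets cannot be ranked by RNA amount. Ciita, the class II master activator, was below the floor on all 4 arrays, at 4.55, 4.58, 4.40 and 4.34.

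Interferon-stimulated genes moved together and set DMSO 3 apart. Of 28 members, 27 were above the floor on all 4 arrays, beside 56.7% of all genes. On DMSO 3, 26 were highest, beside 29.6% of the 12100 genes above the floor on at least 1 array. The list median was 9.17, 10.11, 9.05 and 8.99, and the members lay a median of 1.02 log2 above the mean of the other arrays on DMSO 3. Rsad2, the antiviral enzyme viperin, had 12.31, 13.07, 12.18 and 12.18. Gbp2, an interferon-induced GTPase, had 10.88, 11.76, 10.74 and 10.40. Oas1a, which makes the activator of RNase L, had 10.08, 10.85, 9.99 and 9.90. Ifit1, which binds foreign 5′ ends, had 9.99, 11.17, 9.79 and 9.85. In each of these DMSO 3 was the highest array by 0.77 to 1.18 log2. The exceptions were Ly6e, a surface protein, and Mx1, a dynamin-like GTPase. Ly6e had 9.80, 9.98, 9.59 and 11.26 and Mx1 4.59, 4.86, 4.74 and 5.40, both highest on DMSO 5. A further probe set of Ly6e was above the floor on all arrays and had a range of 0.31 log2 in place of 1.67, with DMSO 3 highest. Without DMSO 3 the spread of the list median over the arrays was 0.18 log2, in place of 1.12 with all 4. The epithelial list was at its lowest on the same array, and the part of the mixture of cells in the interferon signals was not tested.

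As the members were high together, the stretches around the starts of the 3 brightest members with a match are shown, from the same RefSeq build and in the same window. They are Rsad2 on the minus strand at chr12:26456403-26456702, Gbp2 on the plus strand at chr3:142620413-142620712 and Oas1a on the minus strand at chr5:120907476-120907775. Capitals mark matches, searched on both strands, to the letters GAAA followed by any 2 bases and again GAAA, a form of the interferon-stimulated response element that IRF factors bind.
Rsad2: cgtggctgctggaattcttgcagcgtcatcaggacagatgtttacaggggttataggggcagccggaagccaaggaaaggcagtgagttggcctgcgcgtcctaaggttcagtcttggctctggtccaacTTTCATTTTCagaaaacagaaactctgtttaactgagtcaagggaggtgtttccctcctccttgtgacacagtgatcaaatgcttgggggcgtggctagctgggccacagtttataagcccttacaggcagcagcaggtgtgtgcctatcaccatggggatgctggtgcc
Gbp2: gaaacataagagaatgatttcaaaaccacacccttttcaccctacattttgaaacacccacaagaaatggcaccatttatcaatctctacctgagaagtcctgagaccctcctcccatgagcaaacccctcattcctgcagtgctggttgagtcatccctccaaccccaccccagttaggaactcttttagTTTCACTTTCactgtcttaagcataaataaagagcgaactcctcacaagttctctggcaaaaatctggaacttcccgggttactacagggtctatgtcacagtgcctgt
Oas1a: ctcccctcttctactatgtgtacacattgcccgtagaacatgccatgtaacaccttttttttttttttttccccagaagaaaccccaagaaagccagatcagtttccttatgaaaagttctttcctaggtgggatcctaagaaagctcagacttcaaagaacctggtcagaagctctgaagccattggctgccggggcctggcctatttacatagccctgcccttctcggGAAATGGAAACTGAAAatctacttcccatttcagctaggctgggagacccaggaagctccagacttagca
The match begins 120 bases before the gene start in Rsad2 and 59 bases before it in Gbp2, and Oas1a holds 2 overlapping matches that begin 20 and 14 bases before it. Stretches were found for 18 of the 28 genes, and 12 of their 20 stretches (60%) held a match, while 3.44% of all 32851 stretches did. In the genes that stood at least 1 log2 above each other array on DMSO 3, 5 of 36 stretches (13.9%) held one. These sets overlap, as Ifit1, Ifit2, Irf7 and Gbp3 were in both, and Ifit1 and Gbp3 each held a match. The shares are therefore not separate findings. These shares are descriptions of letters in a fixed window and no test was made on them.

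Genes of acute activation and of glycolysis were above background on all arrays, and several were bright. All 16 immediate early and all 16 measured hypoxia and glycolysis genes were above the floor on all 4, beside 56.7% of all genes. Dusp1, a phosphatase that turns off MAP kinases, had 12.76, 13.08, 12.69 and 12.61. Jun, an AP-1 subunit, had 12.30, 12.53, 12.35 and 11.80. Egr1, a growth-response factor, had 10.81, 11.91, 10.74 and 11.82, higher on DMSO 3 and DMSO 5. Myc, the growth regulator, was the 1 variable member, with 7.32, 6.34, 7.33 and 9.48. Aldoa, the glycolytic aldolase, had 12.25, 12.16, 12.21 and 12.07, and Slc2a1, the glucose transporter GLUT1, had 10.93, 10.79, 10.83 and 10.92. Both were steady. The list medians were 10.83, 11.21, 10.70 and 10.43 for the immediate early genes and 10.85, 10.57, 10.77 and 10.34 for glycolysis.

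Genes of other blood lineages were at background more often than not. Of 69 measured members of 8 such lists, 39 were at or below the floor on all 4 arrays and 24 were above it on all, beside 33.5% and 56.7% of all genes. Among B and plasma cell genes 8 of 10 were at or below it, and likewise 8 of 9 NK cell genes, 4 of 5 eosinophil genes, 5 of 9 mast cell and basophil genes, 6 of 12 T cell genes and 4 of 7 erythroid genes. Dendritic cell genes, with 3 of 10 at or below the floor and 5 above it on all arrays, and platelet genes, with 1 of 7 at or below it and 6 above it, ran the other way. Cd79a, a chain of the B cell receptor, had 4.04, 4.14, 4.11 and 3.97, and Ms4a1, or CD20, had 4.50, 4.32, 4.37 and 4.30. Klrd1, the NK receptor CD94, had 3.22, 3.25, 3.27 and 3.37, and Ncr1, or NKp46, lay just above the floor at 5.11, 5.13, 5.01 and 5.09. Epx, eosinophil peroxidase, had 3.52, 3.42, 3.51 and 3.20. The 1 eosinophil gene above the floor was Siglecf, at 7.70, 7.70, 7.71 and 6.32, a sialic acid receptor also known on tumor neutrophils. The T cell genes were uneven. Cd3g had 3.26, 3.37, 3.44 and 3.52, below the floor on all arrays. Cd3d, another chain of the CD3 complex, had 5.42, 5.22, 5.34 and 5.07. Cd3e, a further one, had 5.86, 5.85, 5.62 and 5.66, and both were less than 1 log2 above it. Zap70, the kinase of the T cell receptor, was steady at 8.06, 7.99, 8.13 and 8.03, though its other probe sets had 4.28 to 4.55, below the floor on all arrays, and 4.69 to 4.85, above it on 1 array. Cd4, the co-receptor of helper cells, had 6.88, 7.04, 7.06 and 7.08, about 2 log2 above the floor on each array, and its other probe set had 4.43 to 4.87, below the floor on all. Cpa3, a mast cell protease, was at 4.42, 4.37, 4.54 and 4.26. Ms4a2, a chain of the IgE receptor, was at 3.14, 3.41, 3.16 and 3.15, and both lay below the floor. Of the erythroid genes, Alas2, the first enzyme of heme synthesis in red cells, was below it at 4.59, 4.75, 4.64 and 4.65. Epor, the erythropoietin receptor, was above it on all arrays at 6.58, 6.53, 6.59 and 6.23, and so were the factor Klf1 at 5.78, 5.79, 5.59 and 5.35 and Epb42, a protein of the red cell membrane, at 5.16, 5.21, 5.16 and 4.90. Apart from Siglecf, which was lowest on DMSO 5, the 4 arrays lay within 1 log2 of each other for all these lineage genes. Among dendritic cell genes, the chemokine receptor Xcr1 had 4.19, 4.21, 4.44 and 4.15, below the floor, the factor Zbtb46 had 4.72, 4.94, 4.73 and 4.79, above it on DMSO 5 only, and Itgax, the integrin CD11c shared with other myeloid cells, had 9.06, 9.42, 9.14 and 8.23. Itgax was bright and lowest on DMSO 5.

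Of the markers of nerve, liver and smooth muscle, 1 of 7, 2 of 6 and 3 of 7 measured genes were above the floor on all arrays, and of those of endothelium 6 of 11 were, beside 56.7% of all genes. The list medians of nerve and glia were 3.26, 3.22, 3.20 and 2.99 and those of hepatocytes 4.87, 4.79, 4.78 and 4.59. Sox10, a factor of glia, was the 1 nerve gene above the floor on all arrays, at 7.03, 6.99, 6.98 and 6.84. Cdh5, the cadherin of endothelium, had 4.31, 4.33, 4.48 and 4.78, above the floor of DMSO 5 only, and Kdr, the VEGF receptor, had 5.75, 6.07, 5.77 and 5.76. Myh11, the heavy chain of smooth muscle myosin, was below the floor at 4.71, 4.71, 4.46 and 4.38, while Acta2, or smooth muscle actin, was steady at 8.88, 9.08, 8.98 and 9.06. Acta2 was the brightest gene of the muscle list by this probe set, which is of a kind that can bind several transcripts. The other probe sets of Acta2 had 2.67 to 2.96 and 3.15 to 3.82, below the floor on all arrays. Of 17 cell cycle genes, 7 were above the floor on all arrays and 7 at or below it on all, beside 56.7% and 33.5% of all genes. Top2a, the topoisomerase of dividing cells, had 4.37, 4.43, 4.29 and 4.20. Mki67, the proliferation antigen, was above it at 6.95, 8.13, 7.06 and 6.90, highest on DMSO 3, and Pcna, the replication clamp that repair also uses, had 10.26, 10.46, 10.30 and 10.90.

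**Figure D4:**
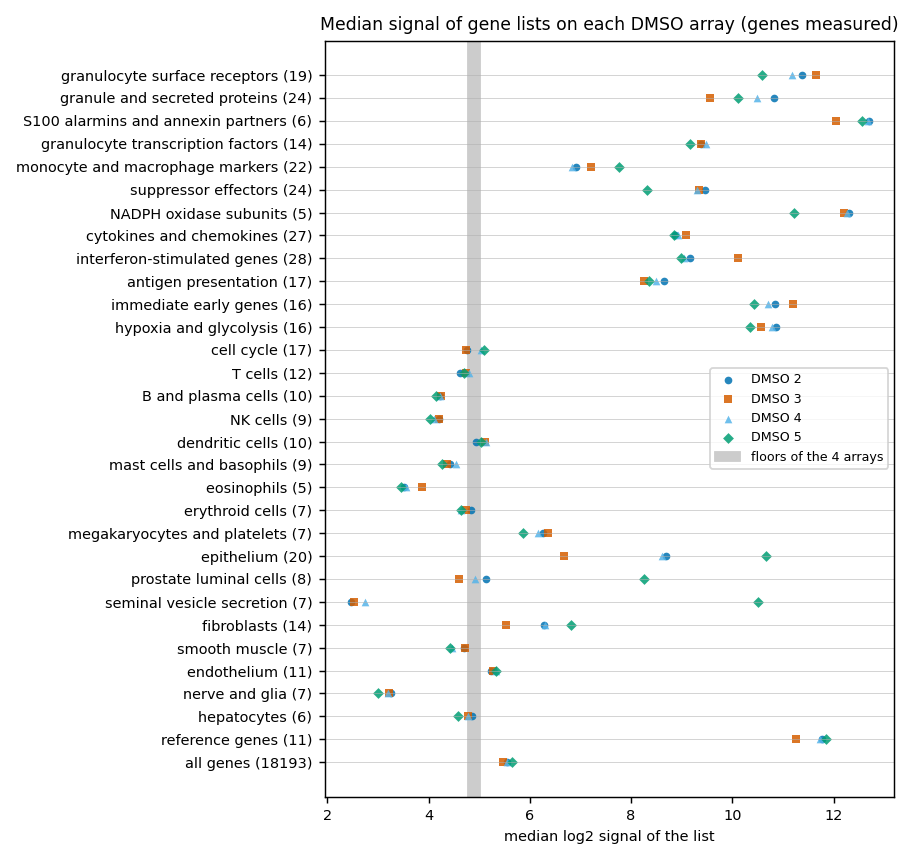
Median log2 signal (horizontal axis) over the members of each gene list on the 4 DMSO arrays, 1 symbol per array, with the number of genes measured in brackets and the floors in grey. The medians of the granulocyte lists lay at 9.15 to 12.69, those of T, B and NK cells at 4.03 to 4.79, and the epithelial median was 6.67 on DMSO 3 and 10.66 on DMSO 5.

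Epithelial genes were present on every array and gave the widest differences between arrays of any list but the seminal vesicle one. Of 20 members, 17 were above the floor on all 4 arrays and 16 were variable, beside 56.7% and 3.87% of all genes. The list median was 8.69, 6.67, 8.61 and 10.66, DMSO 5 was the highest array for 17 members (36.8% of genes above the floor on at least 1 array), and DMSO 3 the lowest for 18 (27.5% of those genes). Krt8, a keratin of simple epithelium, had 10.43, 8.33, 10.17 and 13.31. Epcam, an adhesion protein of epithelium, had 9.09, 6.79, 9.01 and 11.83. Cdh1, E-cadherin, had 9.27, 7.16, 9.24 and 12.04. For each of them DMSO 2 and DMSO 4 lay between the other arrays and close to each other. Krt14, a keratin of basal cells, had 8.94, 6.66, 8.70 and 11.41. Krt7, a keratin of ducts and of the urinary tract, had 10.34, 5.91, 10.48 and 10.29, and here DMSO 5 was alike to DMSO 2 and DMSO 4 and only DMSO 3 was lower. The spread of the list median, 3.99 log2 over 4 arrays, was 2.02 without DMSO 5, 2.07 without DMSO 3 and 0.086 without both. Another probe set of Epcam, which was above the floor on all arrays, had a range of 0.58 log2 in place of 5.04. Cdh3, or P-cadherin, was nearly even and less than 1 log2 above the floor, at 5.59, 5.80, 5.53 and 5.69. Its other probe set had 3.30 to 3.58, below the floor on all arrays. Trp63, a factor of basal cells, was at or below the floor on all arrays, at 4.25, 4.50, 4.21 and 4.15.

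Stromal and glandular genes varied as well. Among fibroblast genes, 6 of 14 were variable, beside 3.87% of all genes, 10 were highest on DMSO 5 and 9 were lowest on DMSO 3, beside 36.8% and 27.5% of genes above the floor on at least 1 array. Col3a1, a fibrillar collagen, had 9.29, 5.80, 9.17 and 9.82, and Col1a1 had 6.26, 5.60, 6.52 and 7.52. Both were lowest on DMSO 3 and highest on DMSO 5. Pdgfra, the receptor of fibroblasts, was below the floor at 3.69, 3.83, 3.82 and 3.51. Fap, fibroblast activation protein, differed in pattern, with 4.01, 6.19, 4.69 and 5.97, higher on DMSO 3 and DMSO 5 than on the other pair. Genes of seminal vesicle secretion were the most uneven of all. Svs2, a clotting protein of semen, had 2.16, 2.15, 2.20 and 13.09. Svs5, a related protein, had 3.67, 3.92, 4.11 and 13.11. Svs4 had 2.45, 2.44, 2.75 and 11.87. On DMSO 5 these signals were near the upper end of the scale, and on the other arrays they were below the floor. All 7 members of that list were highest on DMSO 5, beside 36.8% of genes above the floor on at least 1 array. Of them, 6 were variable and 0 were above the floor on all arrays, beside 3.87% and 56.7% of all genes. Of the luminal genes, Psca, prostate stem cell antigen, had 11.32, 6.62, 11.34 and 9.20, Foxa1, a pioneer factor of prostate, had 8.01, 5.31, 7.88 and 10.09, and Pbsn, probasin itself, was below the floor on every array, at 2.62, 2.82, 2.44 and 2.62. Smad4, which the Cre deletes in prostate epithelium only, was steady at 9.26, 9.35, 9.39 and 9.24, and this probe set has not been placed against the deleted part of the gene. Its other probe sets had ranges of 0.35 and 0.46 log2.

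Among platelet genes Ppbp was the 1 variable member. It encodes the precursor of the platelet chemokine CXCL7 and had 11.78, 6.19, 11.91 and 10.46. DMSO 3 was the lowest by 4.27 log2. Pf4, the other abundant platelet chemokine, had 6.85, 8.41, 6.68 and 7.88, with DMSO 3 the highest, so the 2 did not run together. The platelet receptor genes were dimmer and closer together, with 6.51, 6.48, 6.41 and 6.33 for Itga2b and 6.18, 6.46, 6.07 and 5.86 for Gp9.

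The variable genes followed DMSO 3 and DMSO 5. Of the 704, 635 were highest on DMSO 5, 621 were lowest on DMSO 3 and 579 were both, while 11 were highest on DMSO 3 and 25 lowest on DMSO 5. Without DMSO 5 the number of variable genes was 142, without DMSO 3 it was 403, and without either it was 0, whereas it was 700 without DMSO 2 and 699 without DMSO 4. As DMSO 2 and DMSO 4 were nearly alike, leaving out either of them could change little. The pair alone could hold hardly any variable gene, so these counts restate that likeness. The largest ranges after the seminal vesicle genes and Pate4 were those of Rhpn2, with 7.03, 3.96, 7.19 and 10.35, and of Prss23, a serine protease, with 4.57, 2.78, 4.44 and 8.91. In both genes DMSO 3 was lowest and DMSO 5 highest. Mmp7, the matrilysin of glandular epithelium, had 7.58, 6.59, 7.41 and 11.95, and Spink1, a trypsin inhibitor of glands, had 3.55, 3.90, 3.76 and 9.21. In both DMSO 5 was far above the others. With DMSO 5 left out the widest genes were Rptn, Ppbp, Krt13, Csta1, Sprr1a, Psca, Krt7 and Sprr2f, several of which belong to cornified and squamous epithelium. Krt13, a keratin of squamous and urinary epithelium, had 10.18, 4.60, 10.29 and 8.47. Sprr1a, a cornified envelope precursor, had 11.42, 6.59, 11.45 and 10.54. In both DMSO 3 was the lowest array and DMSO 5 lay between it and the other pair.

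Other genes departed on 1 array in the opposite direction. On DMSO 5 the lowest against the other arrays was Clba1, a clathrin-binding protein, with 9.54, 9.49, 9.43 and 6.21. Clec4a3, a myeloid lectin receptor, had 8.01, 8.22, 7.97 and 5.75, and Gngt2, a G protein γ chain found in myeloid cells, had 8.49, 8.77, 8.50 and 6.46. Def6, an exchange factor of leukocytes, had 9.39, 9.05, 9.05 and 7.38. For these genes the other 3 arrays lay close together. On DMSO 3 the highest against the others, after Il23a, were Efr3b, Rasip1, Ly6i, Mir155hg and Herc6. Mir155hg, the host transcript of miR-155, had 6.16, 7.63, 5.91 and 5.64, and Herc6, an ISG15 ligase of the mouse, had 7.64, 9.10, 7.61 and 7.55. Their gaps to the nearest array were 1.48 and 1.46 log2. For DMSO 4 the largest gap was that of Lrg1, leucine-rich α2-glycoprotein of granulocytes, which was lowest there with 10.41, 11.14, 9.66 and 10.61.

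Of the 3395 genes with a mean of at least 8, 343 (10.1%) were steady, and the number was 1533 without DMSO 5, 672 without DMSO 3, 411 without DMSO 2 and 428 without DMSO 4. Hnrnpk, an RNA-binding protein, had 11.17, 11.17, 11.17 and 11.16, with a range of 0.015 log2. Fth1 was next, and then Golph3, a Golgi protein, had 10.28, 10.27, 10.30 and 10.27, and Api5, an inhibitor of apoptosis, had 10.62, 10.61, 10.64 and 10.62. Krr1, Impa1, Phip, Pdcd10, Stx5a and Mrpl57 followed, with ranges of 0.027 to 0.041 log2. These calls rest on the brightest probe set of each gene. Other sets above the floor had ranges of 0.042 to 0.26 log2 for Hnrnpk and 0.11 to 0.23 for Golph3. For Api5 they were 0.069 to 0.94 and for Krr1 0.15 to 0.53, while the other Fth1 set had 0.014. All 11 measured reference genes were above the floor on all arrays, beside 56.7% of all genes. Sdha, a subunit of succinate dehydrogenase, was steady at 9.33, 9.48, 9.32 and 9.39, though its other probe sets above the floor had ranges of 0.23 and 0.45 log2. Hprt, often used to scale other genes, had 8.37, 8.27, 8.42 and 9.18, and Tfrc, the transferrin receptor, had 7.39, 7.28, 7.50 and 8.14. Both were highest on DMSO 5. Over all genes above the floor on all arrays the median range was 0.48 log2.

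**Figure D5:**
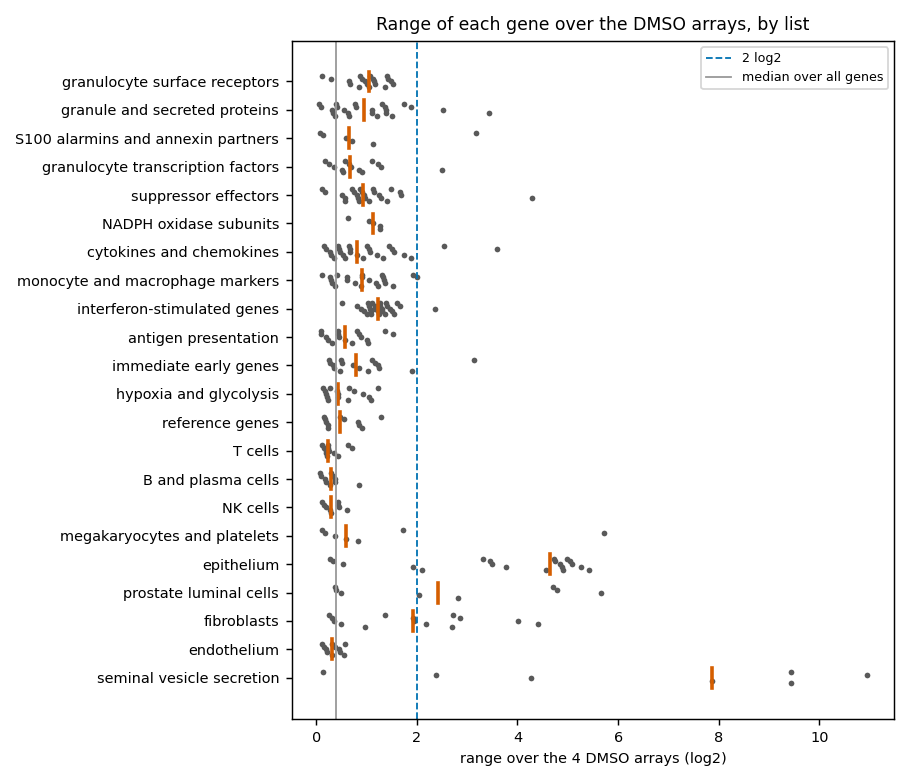
Range over the 4 DMSO arrays in log2 (horizontal axis) for every gene of 22 lists, 1 point per gene, with the list median as an orange bar, the limit of 2 log2 for variable genes dashed and the median of all genes in grey. Many epithelial, luminal, fibroblast and seminal vesicle genes reached past 2 log2, as did a few genes of other lists, such as Arg1, Ltf and Ppbp. Of the receptors, T cell, B cell and NK cell genes 0 did, beside 3.87% of all genes, so this count says little. Most of the B cell and NK cell genes lay at or below the floor.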

How the data were processed

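RNA of the 4 DMSO samples was hybridised to Affymetrix mouse expression arrays. Normalized log2 signals of 45101 probe sets, deposited by the authors in a single table, were used as they stand. The submitters' processing notes name MAS5 for these log2 signals and the published methods name the oligo package, so the summary method is not settled, and the labels name Trizol and the published methods RNeasy for the extraction. The table gives no detection calls and 0 value columns without a sample.

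Probe sets were joined to genes through the platform annotation: 64 are controls, 34945 name 1 gene, 932 name several genes and 9160 name no gene. Of the single-gene sets, 34741 were matched by Entrez ID to RefSeq. A gene was represented by its single-gene set of highest mean over the 4 arrays, and steady and variable were called by that set alone. Among listed genes, 26 were represented by sets that can bind several transcripts, and 108 listed or named genes had another set above the floor on all arrays, of which the range differed by over 1 log2 in 5 (Bgn, Cldn3, Epcam, Ly6e and Sparc). The 32 gene lists held 444 genes, 397 of them measured, and Ly6g, Retnlg, Trp53 and the others are not analysed here. A further floxed gene of the model is not reported here.

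The floor was the 95th percentile of 83 sensory receptor probe sets on each array, of which 4 were above it on all arrays. Means, SDs and ranges were computed per gene. The number of arrays limits the precision, and no test was made apart from Dixon's criterion in the closing section. Genes were named by fixed rules: the 25 of highest mean, defining markers of each list with up to 4 further members of highest mean and those above the floor on some arrays, the 20 largest and 10 smallest ranges, the 8 largest ranges with an array left out, and up to 8 genes that stood apart on an array. Arg1, Camp, Cd74, Cebpa, Ciita, Csf3, Ctsg, Cxcl1, Cxcl5, Cybb, Egr1, Elane, Gfi1, H2-Aa, Hprt, Ifit1, Il10, Klf4, Krt14, Ltf, Ly6e, Mpo, Myc, Nos2, Oas1a, Pbsn, Prtn3, Psmb9, Ptges, Ptgs2, Sdha, Slc27a2, Slc2a1, Slc7a11, Stfa3, Tap1, Tfrc, Tgfb1, Top2a and Trp63, and list members given without a value, were named after their values were seen. The gene lists and the choice of the DMSO arrays were made with earlier results of these data known.

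Promoter stretches came from RefSeq. As alternatives, the arrays were quantile-normalized, 32 was added to linear signals before log2, a gene was given the average of its probe sets, other floors and limits were set, and each array was left out. The calculation was tested on simulated data. Python 3.11.15, pandas 2.3.3, numpy 2.4.6, scipy 1.17.1 and matplotlib 3.10.9 were used.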

Additional observations from a re-analysis of the deposited data

Results flagged for a closer look

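For 165 genes and 31 lists named with values, the gap between the highest or lowest array and the nearest other array was set against the whole range over the 4 arrays. This share was above Dixon's 95% critical value for 4 samples for 30 genes and 5 list medians, and chance gives about 1 in 20 for genes picked without regard to their values. Many of these genes were named because an array stood apart or the range was large, so this rate is no measure for the count, which is a description only.

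DMSO 5 was the low array for Csf3r (11.64), Spi1 (9.70), Id2 (12.06), Camp (6.47), Tgfb1 (6.66), Siglecf (6.32), Clba1 (6.21), Clec4a3 (5.75), Epb42 (4.90) and Gngt2 (6.46). The list medians of the suppressor effectors (8.31) and of the NADPH oxidase subunits (11.22) were low on the same array.

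It was the high array for Apoe (10.93), Mrc1 (6.56), Lyve1 (5.37), Csf3 (7.46), Hprt (9.18), Spink1 (9.21), Svs2 (13.09), Svs4 (11.87) and Svs5 (13.11). The list medians of prostate luminal cells (8.26) and of seminal vesicle secretion (10.50) were high there too.

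DMSO 3 was the high array for Rsad2 (13.07), Ifit1 (11.17), Herc6 (9.10), Il23a (10.26), Slc7a11 (11.42), Mki67 (8.13), Kdr (6.07) and Ms4a2 (3.41), of which Ms4a2 was below the floor. The median of the interferon-stimulated genes (10.11) was high on it as well. It was the low array for Anxa2 (11.84), Col3a1 (5.80) and Krt7 (5.91). Neither DMSO 2 nor DMSO 4 stood out in this way for any of these genes or lists. The pair was nearly alike, which keeps the gap of each to its nearest array small, so this says little about either.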

How the results depend on the processing

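Of 176 values of 18 results under the alternatives, 149 stayed within the limits set for each (1.5 times for a count, 1 SD over arrays for a median or spread) and 27 moved, and none had a test. Variable genes, 704 as reported, numbered 376 with 32 added before log2 and 2528 with a limit of 1 log2. Steady genes, 343 as reported, numbered 175 with the mean of probe sets, 659 with a limit of 0.3 log2 and 1449 with no minimum mean. The mean of probe sets gave list medians of 9.67 for granule proteins (10.32 as reported) and 6.14 for monocyte genes (7.21), and a monocyte spread of 0.27 (0.93). With 1 array left out in turn, variable genes ranged from 142 to 700 and steady genes from 411 to 1533. The spread of the list median over the arrays ranged from 0.48 to 1.08 for receptors, 0.72 to 1.27 for granule proteins, 0.37 to 0.93 for monocyte genes, 0.16 to 1.15 for suppressor effectors, 0.18 to 1.12 for interferon-stimulated genes and 2.02 to 3.99 for epithelium, and the lowest value of each came without DMSO 3 (granule proteins and interferon-stimulated genes) or without DMSO 5 (the others). Without both DMSO 3 and DMSO 5, a setting chosen after seeing the data, variable genes numbered 0 and steady genes 3123, and the spreads were 0.19, 0.34, 0.079, 0.16, 0.11 and 0.086 in the same order. Fewer arrays give smaller ranges by construction, and so does keeping only the nearly alike pair DMSO 2 and DMSO 4. The cause of these shifts was otherwise not tested. Averaging DMSO 2 and DMSO 4 as 1 array, also chosen after seeing the data, moved no result past its limit. Signals under the floor, which were those of 33.5% of genes on all 4 arrays, cannot tell a low level from none. No paired analysis was possible because the results come from no test.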
